A study of Mus musculus with 28 samples.

Results

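Macrophages grown from mouse bone marrow were treated with an siRNA against Keap1 (siKeap1-1) or with a control siRNA (siControl), and their RNA was compared gene by gene on arrays. The comparison takes the 4 arrays labelled Keap1-1 and the 4 labelled siControl, chosen by sample title, out of 28 arrays in 7 groups of 4. It covers 18193 named genes. All 8 samples carried intact Nrf2 (genotype Nrf2 +/+), and the strain was C57BL/6 J, with donors 12 weeks of age. The series' design text calls the 4 samples of a group biological replicates. Neither siRNA sequences nor doses nor times from transfection to harvest are stated in the labels. A further 4 arrays of the same experiment received another siRNA against Keap1 (siKeap1-2), and both siRNAs were set against the same 4 control arrays. The other 16 arrays come from a separate experiment in which Nrf2 +/+ (WT) or Nrf2 -/- (KO) macrophages of the same strain received the Keap1-binding compound RA839 or its solvent DMSO. Values are log2 expression, so a difference of 1 is a 2-fold change, and differences are given ± standard error with n = 4 arrays per group. A gene passed the threshold when its Benjamini-Hochberg adjusted p in limma, taken over all 18193 genes, was under 0.05.

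Keap1 is the substrate adaptor of a Cullin-3 ubiquitin ligase. In unstressed cells it binds Nrf2, a transcription factor encoded by Nfe2l2, and directs its degradation. Electrophiles and oxidants modify cysteines of Keap1, newly made Nrf2 then escapes degradation, pairs with a small Maf protein and binds the antioxidant response element in the control regions of its target genes. Those targets make glutathione and NADPH, reduce quinones, conjugate and export electrophiles and break down haem. In macrophages Nrf2 activity is also known for lowering the transcription of some cytokine genes.

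The core of the antioxidant response element has the letters TGACNNNGC. It was searched on both strands of the RefSeq promoter windows of build GRCm38.p6, which run from 250 bases before a gene's start to 50 bases after it. Many other genes described hold no match in this window. Matches of the core targets Mafg, Pgd and Ugdh, and a further match each of Pir, Abcc4 and Slc6a9, are not printed. As examples, 1 site each of 7 Nrf2 target genes and of the strongly raised glycine transporter gene Slc6a9 is printed below. Each is shown 5′ to 3′ on the strand that holds the motif, with 10 flanking bases on either side and the motif in capitals.
Gclm, chr3:122245413-122245441, minus strand: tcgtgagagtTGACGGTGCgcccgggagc
Gsta3, chr1:21240454-21240482, plus strand: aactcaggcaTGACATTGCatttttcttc
Me1, chr9:86695902-86695930, minus strand: gatgccgccgTGACTCAGCgcttctcgcg
Pir, chrX:164269207-164269235, minus strand: tttgggggagTGACTCAGCctctctatgc
Abcc4, chr14:118676936-118676964, minus strand: aataatctcgTGACTCTGCcgtggtggat
Txnrd1, chr10:82859104-82859132, minus strand: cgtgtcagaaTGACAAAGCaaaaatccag
Srxn1, chr2:152105542-152105570, minus strand: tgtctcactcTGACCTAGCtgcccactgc
Slc6a9, chr4:117849294-117849322, plus strand: tgaaagtaatTGACGCTGCccagcccggc
The Me1 and Pir sites also contain TGACTCA, the letters that AP-1 factors bind. A window was found for 26 of the 32 measured core targets, and 10 of them held the motif (38.5%). Over all measured genes with a window the share was 2334 of 14452 (16.15%), and over all windows of the table it was 4071 of 32851 (12.4%). Among all genes raised by siKeap1-1 it was 242 of 1273 (19.01%), among those raised at least 2-fold 32 of 130 (24.6%), and among genes lowered at least 2-fold 4 of 32 (12.5%). Of the 15 largest rises 11 had a window and 1, Slc6a9, held the motif (9.09%). A match describes letters and no binding, and a window this short leaves out distant elements.

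The arrays were even in overall level. Array medians lay between 5.93 and 5.96 with siControl and between 5.91 and 5.93 with siKeap1-1, and no 2 arrays were identical. RNA quality was read from Gapdh, whose 3′ probe set exceeded its 5′ probe set by 0.765 to 0.80 with siControl and 0.73 to 0.88 with siKeap1-1. This gap was larger for Actb, 1.34 to 1.48 with siControl and 1.37 to 1.65 with siKeap1-1. For Tfrc it was 3.51 to 4.17 and 3.60 to 4.09. The siRNA arrays numbered 4 stood apart in all 3 groups. On these 3 arrays Xist, which is expressed from the inactive X chromosome, read 4.16 to 5.13 against 11.83 to 12.22 on the other 9. The Y-linked gene Eif2s3y read 12.67 to 12.70 against 3.56 to 3.93. The labels give no sex. The neutrophil gene S100a9 read 6.90 to 7.42 on the arrays numbered 4 and 10.03 to 11.49 on the others, and the antibody chain gene Ighm read 8.78 to 9.32 and 6.67 to 8.15. Each group holds 1 such array. The count over all genes is given below with and without the 3 arrays. Among the lists described in the text, so are the counts that moved by over 1.5 times without them. Some lists shown only in the plot of gene lists by percent past the threshold moved as well. For example, p53 targets went from 4 rises to 1 and autophagy and lysosome genes from 5 rises to 3. Heat shock and ER chaperones went from 4 rises to 2, and NF-kB factors and feedback genes from 4 falls to 2.

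The cells carried the defining macrophage markers at high level. With siControl Csf1r, the receptor for the macrophage growth factor, read 14.35 ± 0.06 (SD, n = 4), Cd68 read 14.45 ± 0.01, the lysozyme gene Lyz2 read 14.77 ± 0.02 and Adgre1, which encodes F4/80, read 13.06 ± 0.02. The markers of T and NK cells, fibroblasts, red cells and osteoclasts gave 0 members past the threshold in either direction. Of 5 B cell markers Blnk, a signalling adaptor, fell (−0.50 ± 0.10, adjusted p = 0.00639; 0.0523 without the arrays numbered 4). With siControl it read 11.35, whereas Cd79a, Cd79b, Ms4a1 and Pax5 read 3.36 to 6.15 and did not pass. Of 6 mast cell and basophil markers Hdc, which makes histamine, fell from a dim level (−0.32 ± 0.09, adjusted p = 0.0336), a call lost without siControl array 2 or 3 or siKeap1-1 array 1 or 3 (0.0609 to 0.0979). Because whole cultures were measured, fewer cells of a type and less RNA per cell cannot be told apart.

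siKeap1-1 lowered its target on every array. The brighter Keap1 probe set read 10.94, 11.12, 11.12 and 11.16 on the siControl arrays numbered 1 to 4. It read 8.93, 9.13, 9.11 and 9.08 on the siKeap1-1 arrays in the same order. The groups did not overlap, and Keap1 mRNA fell 4.07-fold (log2 difference −2.03 ± 0.08, adjusted p = 5.24e-08). The dimmer Keap1 probe set read 6.00 ± 0.12 and 5.50 ± 0.15 (SD), a difference of −0.51 (adjusted p = 0.00366 over all probe sets), so the mean of both probe sets gave −1.27.

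**Figure D1:**
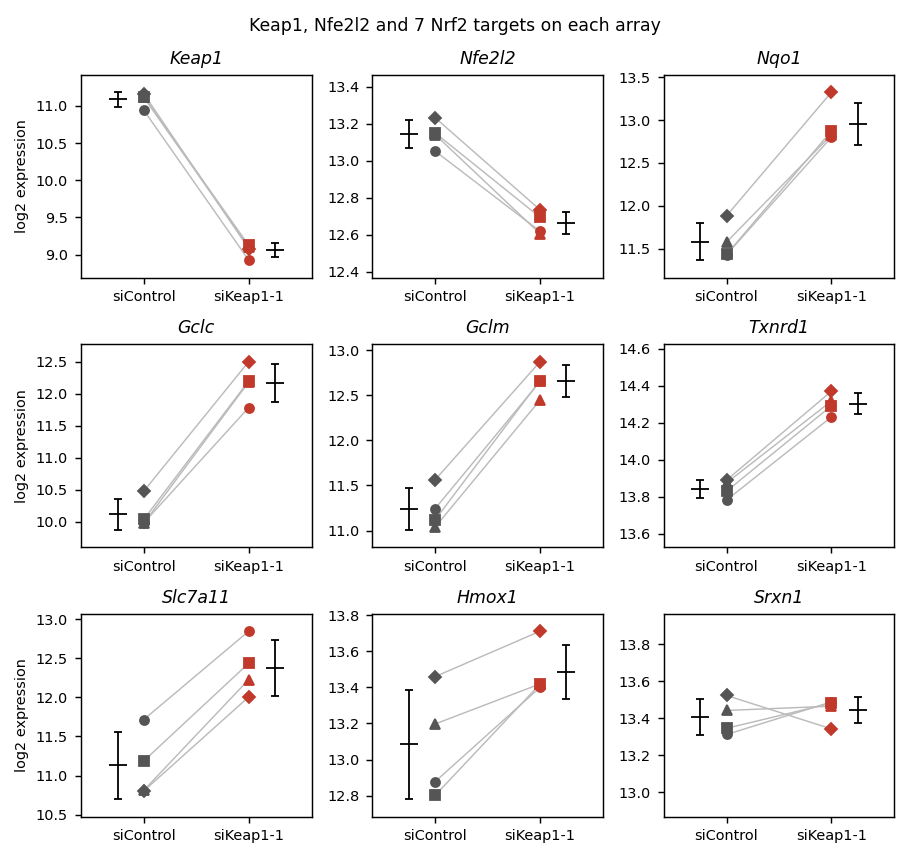
Log2 expression of Keap1, Nfe2l2 and 7 Nrf2 target genes on each siControl array (grey) and siKeap1-1 array (red), with same-numbered arrays joined and marked by the same symbol; bars beside the points give mean ± SD (n = 4), and the vertical axes differ between panels. Keap1 and Nfe2l2 are lower and Nqo1, Gclc, Gclm, Txnrd1 and Slc7a11 higher on every siKeap1-1 array, whereas the Hmox1 and Srxn1 groups overlap.

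Nfe2l2 mRNA itself was lower with siKeap1-1. It read 13.05, 13.15, 13.14 and 13.23 with siControl and 12.62, 12.69, 12.60 and 12.73 with siKeap1-1 (−0.48 ± 0.05, adjusted p = 0.000111). Its dimmer probe set differed by −0.01 (adjusted p = 0.966 over all probe sets). Among the 22 genes of Keap1, Nrf2 and their partners 4 rose and 4 fell, with a median of −0.02 (2 and 3 without the arrays numbered 4). The risers included 3 small Maf genes, whose products pair with Nrf2: Mafg (0.69 ± 0.07, adjusted p = 3.84e-05), Maff (0.62 ± 0.12, adjusted p = 0.00414) and Mafk.

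siKeap1-1 changed 2741 genes, 15.1% of those tested. Of these 1578 rose (8.67%) and 1163 fell (6.39%). Most changes were small: the median of the rises was 0.39 and that of the falls −0.38, beside 0.02 over all genes. Changes of at least 2-fold were mostly rises, 159 (0.874%) against 41 falls (0.225%), together 1.1% of those tested. At least 4-fold, 32 genes rose and 1 fell, and that gene was Keap1. The 4 arrays of each group did not overlap in 2538 of the 2741 genes, and in 20% of all genes. With the replicate number as a block the count was 4371 (24%), with 2467 higher (13.6%) and 1904 lower (10.5%), and 2725 of the 2741 genes remained. Without the 3 arrays numbered 4 it was 2056 genes (11.3%; 6.54% higher and 4.76% lower), 1810 of them shared, and 197 of the 200 genes changed at least 2-fold still passed with the same direction. With all 28 arrays in 1 fit it was 1470 (8.08%; 3.16% lower), of which 1426 were shared.

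**Figure D2:**
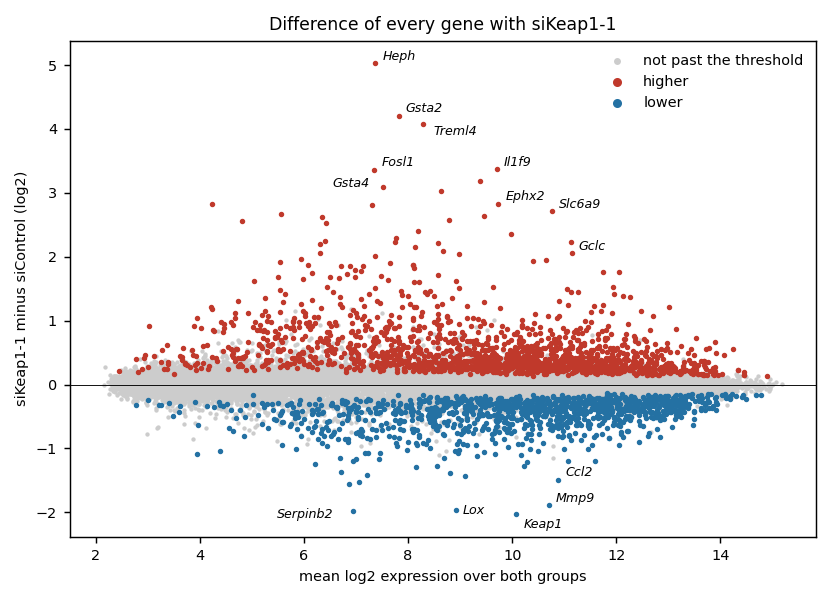
Difference between siKeap1-1 and siControl (log2, vertical axis) against the mean log2 expression of both groups (horizontal axis) for 18193 genes; red and blue points passed the threshold as higher (1578) or lower (1163). The largest rises, up to 5.03 for Heph, exceed the largest fall, −2.03 for Keap1.

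Most Nrf2 target genes rose. Of 32 measured core targets 27 rose and 0 fell, with a median difference of 0.73, where 8.67% of all genes rose and the median over all genes was 0.02. The 5 members that did not pass were Hmox1, Srxn1, Fth1, Ugdh and Gpx2, at 0.40, 0.04, −0.07, 0.14 and 0.04. Without the 3 arrays numbered 4 the counts were 26 and 0. The smallest rises were those of bright genes such as the pentose phosphate enzyme genes Pgd (0.19 ± 0.05, adjusted p = 0.0292) and Tkt (0.22 ± 0.05, adjusted p = 0.0146; 0.0682 without the arrays numbered 4). Several other lists share members with the core list, so their counts repeat part of it. All list counts of the main fit are to be read beside the shares over all genes, 8.67% higher and 6.39% lower.

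Glutathione synthesis rose at each of its enzymes. Gclc, the catalytic subunit of the rate-limiting glutamate-cysteine ligase, read 9.98, 10.03, 9.97 and 10.48 with siControl and 11.78, 12.20, 12.18 and 12.50 with siKeap1-1. The groups lay more than 1 log2 unit apart, and the rise was 4.15-fold (2.05 ± 0.18, adjusted p = 1.62e-05). Gclm, its modifier subunit, read 11.24, 11.12, 11.04 and 11.56, then 12.65, 12.66, 12.45 and 12.87 (1.42 ± 0.12, adjusted p = 1.21e-05). Gss, which completes the tripeptide, read 9.84, 9.62, 9.49 and 9.78 against 11.25, 11.53, 11.96 and 11.76 (1.94 ± 0.14, adjusted p = 3.1e-06). Slc7a11, the cystine carrier that supplies the cysteine, ranged from 10.80 to 11.72 with siControl and from 12.01 to 12.85 with siKeap1-1. Array 1 was the highest and array 4 the lowest in both groups, and the difference was 1.25 ± 0.24 (adjusted p = 0.00446; 4.09e-06 with the block). Slc3a2, its heavy-chain partner, and Gsr, which regenerates reduced glutathione (0.37 ± 0.05), also rose. Over the 13 measured genes of glutathione synthesis and cystine uptake 9 rose and 0 fell, with a median of 0.37.

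Glutathione S-transferases, which attach glutathione to electrophiles, gave some of the largest changes. Gsta2 read 6.18, 5.17, 5.94 and 5.57 with siControl and 9.81, 9.68, 10.08 and 10.11 with siKeap1-1, an 18.4-fold rise (4.20 ± 0.18, adjusted p = 1.01e-07). Gsta4, which acts on lipid aldehydes, read 6.05, 6.11, 5.98 and 5.74, then 9.06, 9.20, 9.20 and 8.79 (3.09 ± 0.12, adjusted p = 4.17e-08). Gsta3 rose from a higher level, 9.74 to 10.23 with siControl, to 11.99 to 12.37 (2.23 ± 0.11, adjusted p = 2.15e-07). The microsomal enzyme gene Mgst2 rose by 0.86 ± 0.09. Of 21 measured members 9 rose and 2, Gstk1 and Mgst3, fell, with a median of 0.31 (10 and 1 without the arrays numbered 4). Alpha- and mu-class genes are close relatives, and a probe set of 1 of them can also bind the RNA of another.

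Of 24 genes that reduce or hydrolyse quinones, carbonyls and epoxides 14 rose and 0 fell (median 0.25). Nqo1, the quinone reductase often used to read Nrf2 activity, read 11.43, 11.43, 11.58 and 11.88 with siControl and 12.80, 12.87, 12.83 and 13.33 with siKeap1-1. All 4 pairs rose by a similar step, 2.60-fold on average (1.38 ± 0.13, adjusted p = 2.9e-05). Ephx2, the soluble epoxide hydrolase, rose 7.08-fold, from 8.09 to 8.54 with siControl to 11.01 to 11.45 (2.82 ± 0.14, adjusted p = 2.35e-07). Its microsomal relative Ephx1 rose by 1.15 ± 0.07 (adjusted p = 8.4e-07). Adh7, an alcohol dehydrogenase, rose by 1.68 ± 0.14 and Aldh3a1, an aldehyde dehydrogenase, by 1.96 ± 0.35 (adjusted p = 1.66e-05 and 0.00262). The aldehyde oxidase gene Aox1 lay at 1.36 ± 0.41 (adjusted p = 0.0422), a call lost without any 1 of the 8 arrays other than siKeap1-1 array 1 (adjusted p = 0.0521 to 0.118).

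Thioredoxin-pathway genes did not move as a group. Of 15 measured members 1 rose and 1 fell (6.67% each, beside 8.67% and 6.39% of all genes), and the median was −0.05. The riser was Txnrd1, thioredoxin reductase, at 13.78, 13.83, 13.87 and 13.89 with siControl and 14.23, 14.29, 14.32 and 14.37 with siKeap1-1 (0.46 ± 0.05, adjusted p = 0.000102). Its dimmer probe sets gave larger differences, 1.41 and 1.20. The gene that fell was Txnip, which binds and inhibits thioredoxin (−0.76 ± 0.09, adjusted p = 0.000143). Srxn1, the sulfiredoxin that repairs overoxidised peroxiredoxins and a standard Nrf2 target, read 13.31, 13.35, 13.44 and 13.52 with siControl and 13.49, 13.48, 13.47 and 13.34 with siKeap1-1. The groups overlapped, the array numbered 4 was the lowest of its group with siKeap1-1 and the highest with siControl, and the difference was 0.04 ± 0.06 (adjusted p = 0.768). Of its 4 probe sets 1 rose (0.45, adjusted p = 0.00901 over all probe sets), and the others lay at 0.04, −0.20 and 0.03.

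NADPH supply, export pumps and haem handling gave mixed counts with several clear members. Me1, the cytosolic malic enzyme that makes NADPH, ranged from 6.58 to 7.54 with siControl and from 8.99 to 9.50 with siKeap1-1 (2.15 ± 0.19, adjusted p = 2.15e-05). Taldo1, of the pentose phosphate pathway, rose by 0.44 ± 0.05, and Idh2, the mitochondrial NADP-dependent isocitrate dehydrogenase, fell by 0.54 (adjusted p = 0.00189; 0.154 for the mean over its probe sets). In that list 5 of 14 rose and 2 fell. Of 9 export pump genes 3 rose and 0 fell: Abcc4 (1.53 ± 0.20), Abcc1 (0.76 ± 0.11) and Abcc3 (0.83 ± 0.19; adjusted p = 0.161 with all 28 arrays in 1 fit). Haem and iron genes gave 7 rises and 1 fall in 20, the rises including Blvrb, a biliverdin reductase (0.73 ± 0.08), the iron exporter gene Slc40a1 (0.56 ± 0.11; adjusted p = 0.322 with all 28 arrays in 1 fit) and the haem transporter gene Slc48a1 (0.51 ± 0.06). Hmox1, haem oxygenase, read 12.88, 12.80, 13.20 and 13.46 with siControl and 13.40, 13.42, 13.42 and 13.71 with siKeap1-1. Each pair was higher with siKeap1-1, but siControl array 4 lay above 3 of the siKeap1-1 arrays, and the difference of 0.40 ± 0.13 did not pass (adjusted p = 0.0581; 0.00823 with the block, 0.00818 without siControl array 4 and 0.0177 without the arrays numbered 4).

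**Figure D3:**
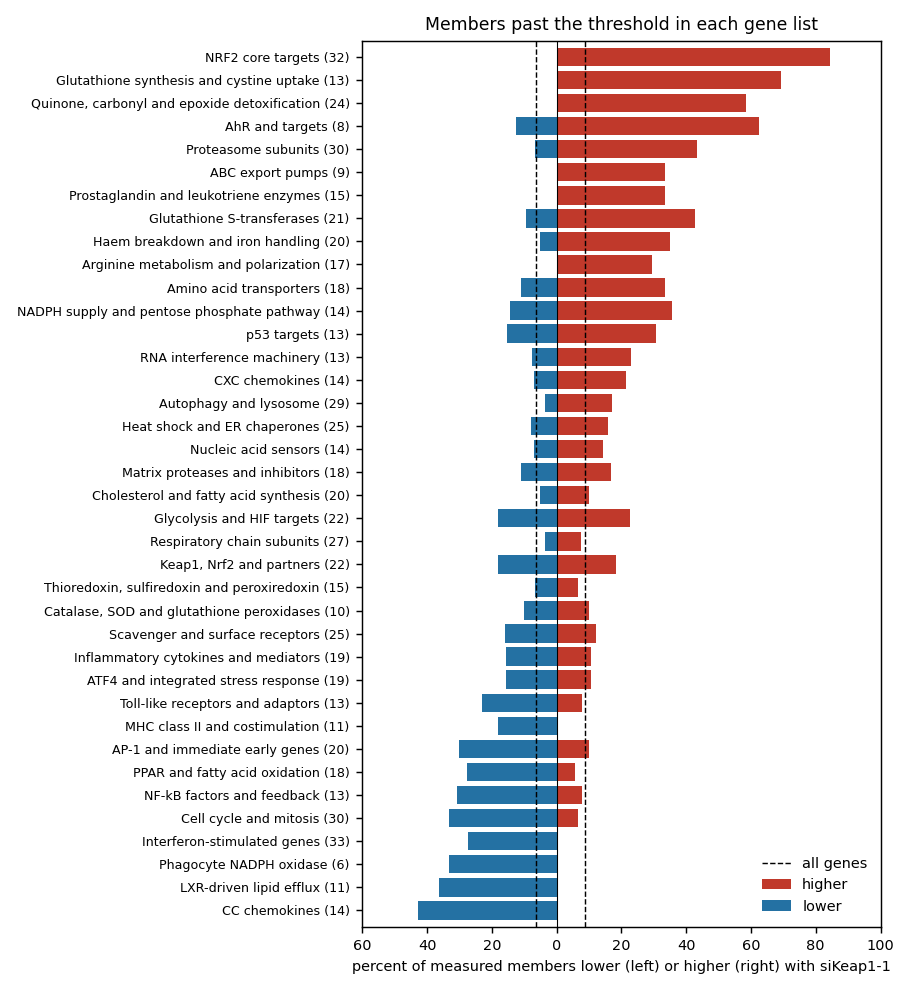
Percent of measured members past the threshold as higher (red, to the right) or lower (blue, to the left) with siKeap1-1 in 38 gene lists, with the number of measured members in brackets; dashed lines mark the percent of all genes, 8.67 higher and 6.39 lower. NRF2 core targets stand at the top with 27 of 32 higher, and CC chemokines at the bottom with 6 of 14 lower.

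The largest rise of all was outside the classical detoxification enzymes. Heph, hephaestin, a copper-dependent ferroxidase that works with iron export, read 4.86, 4.96, 4.87 and 4.75 with siControl, among the dim probe sets, and 9.46, 9.92, 10.34 and 9.82 with siKeap1-1. This is a 32.6-fold rise (5.03 ± 0.15, adjusted p = 1.1e-08). Treml4, a receptor of the TREM family found on macrophages and some monocytes, read 5.89, 6.15, 6.55 and 6.37, then 9.92, 10.34, 10.40 and 10.64 (4.08 ± 0.18, adjusted p = 1.01e-07). Slc6a9, a glycine transporter, read 9.14 to 9.69 with siControl and 11.95 to 12.40 with siKeap1-1 (2.71 ± 0.13, adjusted p = 1.83e-07). Glycine is a building block of glutathione. The mean of the Slc6a9 probe sets gave 1.65.

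The remaining largest rises included genes of cytokines, receptors and transcription factors. Il1f9, an interleukin-1 family cytokine, read 7.87 to 8.18 with siControl and 11.09 to 11.68 with siKeap1-1 (3.37 ± 0.12, adjusted p = 2.84e-08). Fosl1, the AP-1 subunit Fra-1, read 5.34 to 5.86 and 8.59 to 9.63 (3.36 ± 0.20, adjusted p = 8.4e-07; 2.22 for the mean over its probe sets). Ednrb, an endothelin receptor, read 7.73, 7.57, 7.55 and 8.30 with siControl and 10.19, 10.95, 10.67 and 12.08 with siKeap1-1. Its array numbered 4 was the highest in both groups, and the rise was 3.18 ± 0.44 (adjusted p = 0.000477), or 1.43 for the mean over its probe sets. The chemokine genes Ppbp (3.03 ± 0.35) and Cxcl3 (2.81 ± 0.34), whose products attract neutrophils, followed (adjusted p = 0.000122 and 0.000172). The other members of the 15 largest rises were Esm1, which encodes endocan, the homeobox gene Six4, Dnmt3l, a cofactor of DNA methyltransferases, and the small GTPase gene Rasd2, at 2.62 to 2.82. Esm1 was dim, at 2.82 with siControl and 5.64 with siKeap1-1. Six4 read 4.22 with siControl, and its other probe sets gave differences of 2.84, 1.04 and −0.01. Dnmt3l was even on the siControl arrays, 8.07 to 8.17, and read 10.53 to 10.90 with siKeap1-1. Adm, which encodes the vasodilator peptide adrenomedullin, rose by 2.58 ± 0.15 (adjusted p = 8.33e-07; 1.68 for the mean over its probe sets).

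**Figure D4:**
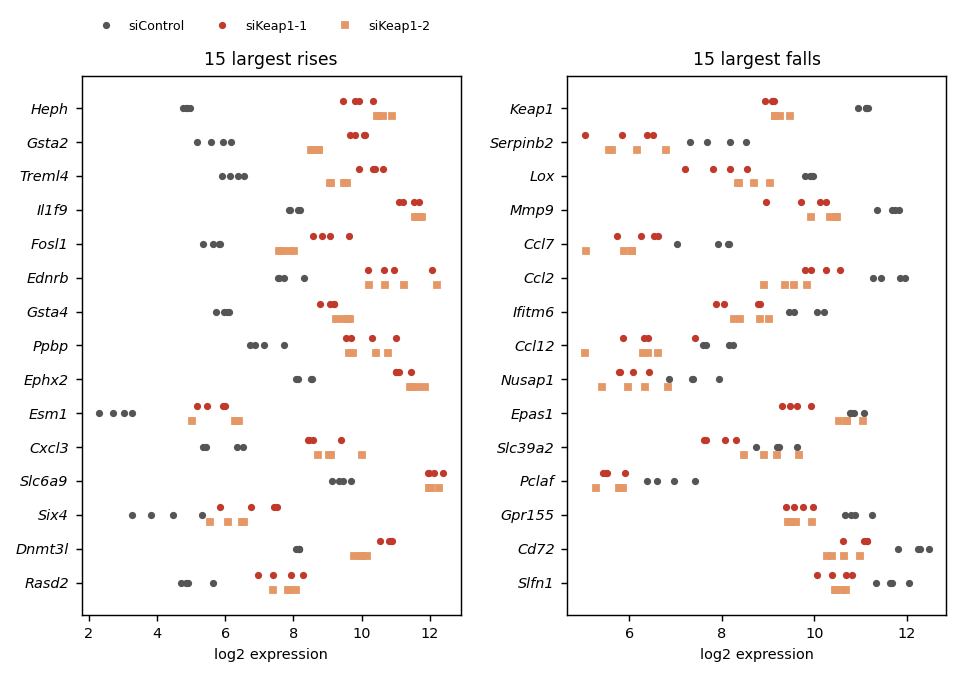
Log2 expression (horizontal axis) of the 15 largest rises and 15 largest falls with siKeap1-1 among genes whose siKeap1-1 and siControl arrays do not overlap, with 4 points per group: siControl grey, siKeap1-1 red circles, siKeap1-2 orange squares. Heph separates the groups most, and for Epas1 the siKeap1-2 arrays (10.52 to 11.06) overlap the siControl arrays (10.77 to 11.07).

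After Keap1, the 3 largest falls were Serpinb2, Lox and Mmp9. Serpinb2, an inhibitor of plasminogen activators, read 8.53, 8.19, 7.68 and 7.32 with siControl and 6.39, 6.52, 5.85 and 5.04 with siKeap1-1. Both groups were lowest on the array numbered 4, and the difference was −1.98 ± 0.37 (adjusted p = 0.0034). Lox, lysyl oxidase, which crosslinks collagen, read 9.98, 9.91, 9.79 and 9.94, then 8.54, 8.17, 7.21 and 7.81 (−1.97 ± 0.24, adjusted p = 0.000178; −1.25 for the mean over its probe sets). Mmp9, a gelatinase, read 11.74, 11.68, 11.82 and 11.35, then 10.13, 10.25, 9.72 and 8.95 (−1.89 ± 0.24, adjusted p = 0.000289). Its dimmer probe set lay at −1.07 and did not pass (adjusted p = 0.0733 over all probe sets). Of 18 matrix proteases and inhibitors Serpinb2 and Mmp9 fell (11.1%), and Mmp19, Plaur and Mmp8 rose (16.7%), beside 6.39% and 8.67% of all genes.

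Of 14 measured CC chemokine genes 6 fell, 0 rose and 8 did not pass, beside 6.39% and 8.67% of all genes. The median was −0.57 and 0 of the 14 differences were above 0. Ccl2, the main monocyte attractant, read 11.26, 11.84, 11.95 and 11.44 with siControl and 9.80, 10.55, 10.24 and 9.93 with siKeap1-1, a 2.82-fold fall (−1.49 ± 0.22, adjusted p = 0.000756). Ccl7 read 7.02 to 8.16 with siControl and 5.74 to 6.63 with siKeap1-1 (−1.53 ± 0.29, adjusted p = 0.00421). Ccl12 lay at −1.42 ± 0.37 (adjusted p = 0.0218), a call lost without siControl array 2 or 3 or siKeap1-1 array 1 or 3 (adjusted p = 0.0644, 0.0605, 0.0605 and 0.057) and without the arrays numbered 4 (0.067). The genes of the inflammatory macrophage proteins, Ccl3 (−0.80 ± 0.10) and Ccl4 (−1.05 ± 0.13), and Ccl6 (−0.39 ± 0.05) fell with adjusted p = 0.00025, 0.000172 and 0.000244. CXC chemokines behaved otherwise: of 14 genes Ppbp, Cxcl3 and Cxcl2 (0.82 ± 0.19) rose and Cxcl16 (−0.41 ± 0.10) fell. The calls of Cxcl2 and Cxcl16 were lost with all 28 arrays in 1 fit (adjusted p = 0.404 and 0.445).

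Inflammatory cytokines gave 2 rises and 3 falls in 19 (10.5% and 15.8%), beside 8.67% and 6.39% of all genes. Il1b read 8.04, 7.96, 7.93 and 6.88 with siControl and 6.34, 6.98, 6.89 and 6.33 with siKeap1-1 (−1.07 ± 0.25, adjusted p = 0.0141). The groups overlapped through siControl array 4. Il1a, its neighbour in function, rose instead (0.59 ± 0.14, adjusted p = 0.0142). Interferon-stimulated genes were lower where they passed: of 33 measured 9 fell (27.3%, beside 6.39% of all genes) and 0 rose, with a median of −0.25. With the block 16 fell, without the arrays numbered 4 it was 5, and with all 28 arrays in 1 fit it was 1. Ifit2 read 12.51, 12.84, 12.59 and 12.26 with siControl and 11.63, 12.00, 11.80 and 11.47 with siKeap1-1 (−0.83 ± 0.14, adjusted p = 0.00173), and Rtp4 lay at −0.54 ± 0.06 (adjusted p = 0.000162). Cd83, a surface marker of activated antigen-presenting cells, fell by 1.02 (± 0.16, adjusted p = 0.00138). Fits over all 28 arrays gave adjusted p = 0.287 for Il1b, 0.181 for Il1a, 0.606 for Ifit2, 0.788 for Rtp4 and 0.0589 for Cd83.

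Several surface genes of macrophages fell with them. Of the 10 macrophage markers 5 fell and 0 rose (3 and 0 without the arrays numbered 4): the Fc receptor gene Fcgr1 (−0.72 ± 0.11, adjusted p = 0.000965), the LPS co-receptor gene Cd14 (−0.58 ± 0.12, adjusted p = 0.00506), the scavenger receptor gene Msr1 (−0.43 ± 0.04), Mertk (−0.49 ± 0.14) and Adgre1 (−0.17 ± 0.05). The Fcgr1 call was lost with all 28 arrays in 1 fit (adjusted p = 0.215). The call of Mertk, which encodes a receptor for dying cells, was lost without any 1 array other than siControl array 1 (adjusted p = 0.0641 to 0.116), and that of Adgre1 without any 1 array other than siKeap1-1 arrays 2 and 3 (0.0512 to 0.0746). Csf1r, Cd68 and Lyz2 lay at 0.03, −0.02 and −0.05 and did not pass. The mean log2 level of the macrophage list was 12.96 to 13.09 on the siControl arrays and 12.72 to 12.84 on the siKeap1-1 arrays. Of 10 neutrophil markers S100a8 and Elane rose (0.52 and 0.53) and 8 did not pass, with list means of 5.69 to 6.67 and 5.71 to 6.61. Elane was dim, at 3.59 with siControl and 4.12 with siKeap1-1, and 4 of the 10 differences were above 0. Of 7 dendritic cell markers Ccr7 and Flt3 fell (−0.91 and −0.52), and the list means were 6.30 to 6.74 and 6.06 to 6.33. Each of these 4 calls was lost when some single arrays were left out: S100a8 without siControl array 1, 2 or 4 or siKeap1-1 array 1, 2 or 3 (adjusted p = 0.05 to 0.109), Elane without siControl array 2, 3 or 4 or siKeap1-1 array 2 (0.0548 to 0.0756), Ccr7 without siControl array 1, 2 or 3 or siKeap1-1 array 4 (0.0538 to 0.058) and Flt3 without siControl array 1 or 3 or siKeap1-1 array 1, 2 or 4 (0.054 to 0.0814). The part of these markers in the falls of cytokine and surface genes was not tested.

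Of 30 measured cell cycle genes 10 fell, 2 rose and 18 did not pass, beside 6.39% and 8.67% of all genes. The median was −0.26, and 7 of the 30 differences were above 0. Without the arrays numbered 4 the counts were 8 and 1. Rrm2, a subunit of ribonucleotide reductase, read 12.48, 12.25, 12.06 and 12.34 with siControl and 11.59, 11.64, 11.12 and 11.46 with siKeap1-1 (−0.83 ± 0.13, adjusted p = 0.000961). Ccna2, cyclin A2, fell by 0.86 (± 0.18, adjusted p = 0.00738) and Top2a, a topoisomerase of dividing cells, by 0.81 (± 0.14, adjusted p = 0.00209). The mitotic spindle gene Nusap1 and the PCNA partner gene Pclaf were among the 15 largest falls, at −1.37 ± 0.29 and −1.25 ± 0.21. The genes that rose were Mcm2, a subunit of the replicative helicase (0.47 ± 0.09, adjusted p = 0.00467), and the cell cycle inhibitor gene Cdkn1a (0.20 ± 0.06, adjusted p = 0.0354). The Cdkn1a call was lost without siControl array 1, 2 or 4 or siKeap1-1 array 2 or 3 (0.0648 to 0.097), and the Ccna2 call with all 28 arrays in 1 fit (0.133).

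Of 30 measured proteasome subunit genes 13 rose, 2 fell and 15 did not pass, beside 8.67% and 6.39% of all genes, and the median was 0.15. Without the arrays numbered 4 the counts were 8 and 1. Psmd11, a lid subunit, read 12.35, 12.30, 12.37 and 12.26 with siControl and 12.79, 12.80, 12.94 and 12.83 with siKeap1-1 (0.52 ± 0.05, adjusted p = 4.57e-05). The catalytic subunit gene Psmb5 rose by 0.28 ± 0.05 (adjusted p = 0.0036). A gene that fell, Psmb9 (−0.56 ± 0.06, adjusted p = 4.36e-05), encodes an interferon-induced immunoproteasome subunit and was also counted among the interferon-stimulated genes. Genes of arachidonic acid metabolism gave 5 rises and 0 falls in 15, led by the phospholipase gene Pla2g4a (1.07 ± 0.07, adjusted p = 1.31e-06) and the lipoxygenase gene Alox5 (0.73 ± 0.10, adjusted p = 0.000602). The aryl hydrocarbon receptor gene Ahr rose by 0.88 ± 0.10 (adjusted p = 7.86e-05), and 5 of the 8 genes of its list rose, including its targets Cyp1b1 and Tiparp. The list members Cyp1a1 and Cyp1a2 did not pass. The Cyp1b1 call was lost for the mean over its probe sets (0.0659). That of Ahrr, also among the rises, was lost without siControl array 2 or 3 or siKeap1-1 array 1 (0.0514 to 0.0667). The partner gene Arnt fell (−0.24 ± 0.06), a call lost without the arrays numbered 4 (0.0774) and without siControl array 2 or 4 or siKeap1-1 array 2 alone (0.0581 to 0.0601). With all 28 arrays in 1 fit the calls of Psmb5 (0.07), Alox5 (0.0716), Cyp1b1 (0.196) and Tiparp (0.106) were lost.

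Lipid efflux and fatty acid oxidation genes were mostly lower where they passed. Of 11 genes of LXR-driven lipid efflux 4 fell and 0 rose: the efflux pumps Abca1 (−0.55 ± 0.11) and Abcg1 (−0.42 ± 0.06), Apoe (−0.52 ± 0.11) and Pltp (−0.37 ± 0.06). Of 18 genes of fatty acid oxidation 5 fell, among them the mitochondrial enzyme genes Acadm (−0.46 ± 0.05) and Acaa2 (−0.44 ± 0.06), and the receptor gene Ppard rose (0.57 ± 0.07, adjusted p = 0.000139). With all 28 arrays in 1 fit the calls of Abca1 (0.176), Apoe (0.743), Pltp (0.402) and Acaa2 (0.0569) were lost. AP-1 and immediate early genes split, with 2 of 20 higher, led by Fosl1, and 6 lower, led by Klf4 (−0.70 ± 0.13, adjusted p = 0.00348). Without the arrays numbered 4 the AP-1 list gave 2 and 3, fatty acid oxidation 1 rise and 3 falls, and lipid efflux 1 rise and 4 falls. Socs3, a feedback inhibitor of cytokine receptors, rose by 1.42 ± 0.11 (adjusted p = 1.01e-05). Of 27 respiratory chain subunits 2 rose, 1 fell and 24 did not pass (0 and 1 called without the arrays numbered 4), and their median was 0.06.

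Innate sensors of nucleic acid and genes of RNA interference are read here beside the share over all genes, 8.67% higher and 6.39% lower. Of 14 sensors Sting1 (0.62 ± 0.11) and Cgas (0.26 ± 0.05) rose and Tlr7 (−0.25 ± 0.05) fell, calls that were lost with all 28 arrays in 1 fit (adjusted p = 0.0856, 0.224 and 0.24). Of 13 genes of RNA interference 3 rose, led by Drosha (0.43 ± 0.08), and Ago4 fell (−0.48 ± 0.07). The median differences of these lists were −0.07 and −0.03.

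The siRNAs against Keap1 share their control arrays, so their values are given side by side and the difference between them was tested directly. siKeap1-2 changed 2038 genes (11.2%). The direct test of siKeap1-1 against siKeap1-2 gave 1356 genes (7.45%), 650 higher (3.57%) and 706 lower (3.88%) with siKeap1-1, of which 43 differed at least 2-fold (0.236%). That count was 849 without siKeap1-2 array 2, 868 without the arrays numbered 4 and 2665 with the block. Keap1 itself lay at −2.03 and −1.83 and did not pass in the direct test (−0.20 ± 0.08, adjusted p = 0.199). Of the 32 core targets 27 rose with siKeap1-1 (beside 8.67% of all genes) and 26 with siKeap1-2 (beside 6.32%), and their medians were 0.73 and 0.80. In the direct test 0 of them were higher and 2 lower with siKeap1-1, Srxn1 and Taldo1.

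Srxn1 was the core target on which the siRNAs differed most. It read 13.98, 14.01, 13.99 and 13.85 on the siKeap1-2 arrays, above all siControl and all siKeap1-1 arrays. The difference from siControl was 0.55 (adjusted p = 0.000164), beside 0.04 for siKeap1-1, and the direct difference was −0.51 ± 0.06 (adjusted p = 0.000592). All 4 Srxn1 probe sets were lower with siKeap1-1 than with siKeap1-2, by −0.49 to −1.11 (adjusted p = 0.000309 to 0.0045 over all probe sets). The direct difference for Taldo1 was −0.27 ± 0.05, its rises being 0.44 and 0.71.

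Some of the largest responses to siKeap1-1 differed in size between the siRNAs. Gsta2 rose by 4.20 with siKeap1-1 and 2.94 with siKeap1-2 (direct difference 1.26, adjusted p = 0.00168). The values were 4.08 and 3.07 for Treml4 (1.01, adjusted p = 0.00496), 3.36 and 2.11 for Fosl1 (1.25, adjusted p = 0.00252) and 2.63 and 1.84 for Dnmt3l (0.80, adjusted p = 0.000414). Heph went the other way, at 5.03 and 5.76 (−0.73, adjusted p = 0.0132), and so did Adm, at 2.58 and 3.47 (−0.89, adjusted p = 0.00356). For Nqo1, Gclc and Gclm the direct differences were 0.10, 0.12 and 0.08 and did not pass (adjusted p = 0.748, 0.789 and 0.764).

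The largest direct differences with no overlap between the siRNAs were in other genes. Dmkn, dermokine, read 8.54, 9.16, 9.30 and 8.69 with siKeap1-1 against 6.38 to 6.87 with siControl and 6.81 to 7.58 with siKeap1-2 (direct difference 1.77 ± 0.20, adjusted p = 0.000334). Slamf8, a receptor of the SLAM family, went in opposite directions, 0.54 with siKeap1-1 (adjusted p = 0.00111) and −1.02 with siKeap1-2 (adjusted p = 1.48e-05), a direct difference of 1.57 (adjusted p = 2.39e-06). The other largest differences towards siKeap1-1 were Ripor2, Ypel4, Armcx2 and Utp14b, at 1.34 to 1.38, of which only Ypel4 passed against siControl with siKeap1-1 (0.79 ± 0.16; adjusted p = 0.152 with all 28 arrays in 1 fit). Ripor2 and Utp14b passed against siControl with neither siRNA (adjusted p = 0.113 and 0.0828 with siKeap1-1, 0.0813 and 0.0548 with siKeap1-2). Ripor2 passed with siKeap1-1 when siKeap1-1 array 4 was left out (adjusted p = 0.0129), and Utp14b without that array or siControl array 1 (0.0495 and 0.0436). The dimmer Ripor2 probe sets had direct differences of 0.17, 0.49 and −0.05 and did not pass (adjusted p = 0.671, 0.195 and 0.852 over all probe sets).

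On the lower side Epas1, which encodes the hypoxia factor HIF-2alpha, read 11.07, 10.85, 10.79 and 10.77 with siControl and 9.92, 9.63, 9.48 and 9.31 with siKeap1-1. The difference was −1.28 ± 0.14 (adjusted p = 7.72e-05), beside −0.12 with siKeap1-2 (adjusted p = 0.66), and −1.16 in the direct test (adjusted p = 0.00041). Prkar2a, a regulatory subunit of protein kinase A, read 11.90 to 12.01 with siControl, 10.65 to 11.14 with siKeap1-1 and 12.06 to 12.25 with siKeap1-2 (direct difference −1.18, adjusted p = 2.57e-05). Thra, a thyroid hormone receptor, lay at −1.13 and 0.13, Slc9a3r2, a scaffold protein gene, at −0.91 and 0.27, and Smagp at −0.79 and 0.46 (direct differences −1.25, −1.18 and −1.25). The other Thra probe sets gave −0.28 and −0.17 with siKeap1-1 and did not pass (adjusted p = 0.0638 and 0.23 over all probe sets). Their direct differences were smaller, −0.53 each (adjusted p = 0.00438 and 0.00255 over all probe sets). Lrrc3 lay at −1.38 and 0.01 (−1.39, adjusted p = 0.0348), and among the direct calls of these 12 genes this was the 1 that alternatives ended: it was lost without siKeap1-1 array 1, 2 or 4 or siKeap1-2 array 1, 2 or 3 (0.0606 to 0.104). It was also lost for the mean over the Lrrc3 probe sets. The Lrrc3 call against siControl (adjusted p = 0.0211) was lost without siControl array 1, 2 or 3 or siKeap1-1 array 4 (0.0509 to 0.0645). For the mean over its probe sets it was lost too (−0.68, adjusted p = 0.0851). The dimmer Lrrc3 probe set gave 0.02 against siControl and 0.01 in the direct test (adjusted p = 0.96 and 0.994 over all probe sets). Of 18 genes of fatty acid oxidation 7 were lower with siKeap1-1 than with siKeap1-2 and 0 higher, beside 3.88% and 3.57% of all genes in the direct test. Against siControl 5 of them fell and 1 rose with siKeap1-1, and 0 fell and 3 rose with siKeap1-2.

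The compound experiment used other cultures and other control arrays, so it can be set beside the siRNA result. It was fitted apart. There RA839 raised 104 genes in WT cells (0.572% of those tested) and lowered 16 (0.0879%). Of the 104 raised genes 79 also rose with siKeap1-1, which is 76.0% of that list and 5.01% of the 1578, where 8.67% of all genes rose with siKeap1-1. Of the 16 lowered genes 7 also fell, beside 6.39% of all genes. The 159 genes raised at least 2-fold by siKeap1-1 had a median of 1.40 with siKeap1-1, the comparison by which they were chosen. In the compound experiment their median was 0.54 with RA839 in WT and 0.01 with RA839 in KO cells. RA839 in KO gave 0 genes past the threshold by limma (0%).

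KO cells without compound were lower in many of the genes that siKeap1-1 raised. In DMSO 2518 genes were lower (13.8%) and 2043 higher (11.2%) in KO than in WT. Of the 159 genes raised at least 2-fold 102 were lower in KO (64.2%) and 4 higher, and 80 were lower at least 2-fold (50.3%, beside 2.36% of all genes). Of the 1578 raised genes 534 were lower (33.8%). Ednrb lay −5.56, Nqo1 −4.83, Gsta3 −4.72, Il1f9 −3.66 and Me1 −2.73 from WT. Heph, the largest rise with siKeap1-1, lay at −0.89 and did not pass in KO (adjusted p = 0.147), nor did it with RA839 in WT (0.87, adjusted p = 0.515). Adm (−0.15, adjusted p = 0.685) and Esm1 (−0.46, adjusted p = 0.126) did not pass in KO either.

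Of the 1163 genes lowered by siKeap1-1 273 were higher in KO (23.5%, beside 11.2% of all genes) and 84 lower. Of the 41 lowered at least 2-fold 17 were higher in KO (41.5%) and 3 lower. Lox lay 2.50 above WT (adjusted p = 0.00634), Mmp9 1.26 above it (adjusted p = 0.0234) and Ccl7 1.36 (adjusted p = 0.0179). Ccl2 (0.40, adjusted p = 0.303) and Serpinb2 (0.23, adjusted p = 0.713) did not pass. Whatever else set the WT and KO cultures apart cannot be told apart from the missing Nrf2.

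**Figure D5:**
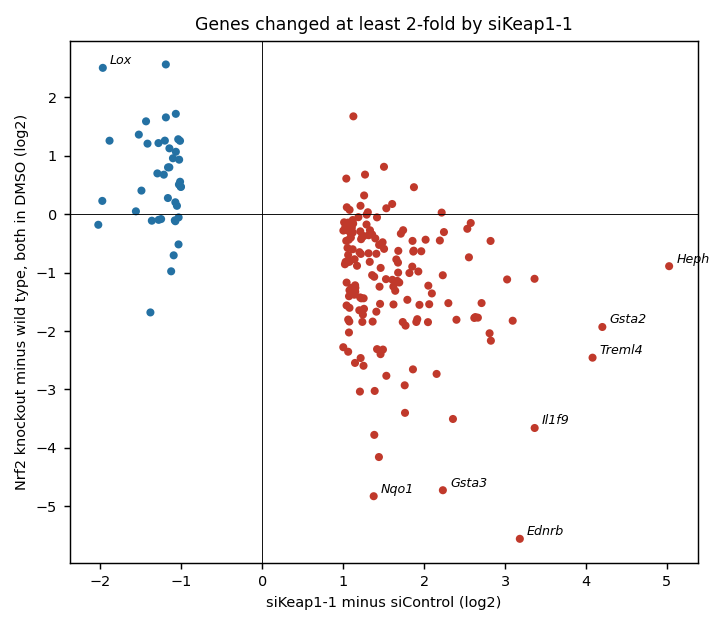
The 200 genes changed at least 2-fold by siKeap1-1, with their difference from siControl (log2, horizontal axis) against the difference between KO and WT cells in DMSO from separate arrays (log2, vertical axis); red genes rose and blue genes fell with siKeap1-1. Of the 159 red points 91.8% lie below 0 on the vertical axis, where 52.5% of all genes lie, and the median of the 41 blue points is 0.55.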

How the data were processed

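RNA was labelled and measured on whole-genome mouse arrays with 45101 probe sets. In the deposited table each probe set has a log2 value on each array, which the authors made with RMA per the submitters' processing notes, with no version named. RMA corrects background, normalizes between arrays and shrinks differences between dim probe sets. Values of the 8 arrays ran from 1.86 to 15.24. The number of arrays limits the precision.

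Gene names came from the platform annotation: 35890 probe sets were listed, 932 of them with several genes and not used, and 34945 named 1 gene, of which 34741 matched RefSeq. Where a gene had several probe sets, the brightest on average across the 28 arrays stood for it, which left 18193 genes. Of 760 different genes in the lists 56 had no usable probe set. The 12 siRNA arrays were fitted together in limma 3.58.1 in R 4.3.3 (lmFit on group means, then eBayes; two-sided), and the compound arrays apart from them, since nothing says that both experiments were normalized together. Each p-value sets a difference of group means against the spread between these samples within their groups.

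Same-numbered arrays deviated together: correlations across genes between siControl and siKeap1-1 were 0.13 to 0.64 for the same number and −0.39 to 0.15 otherwise. The labels give the numbers and not their meaning. The main fit did not use the numbers, so deviations shared by same-numbered arrays stayed in the spread it tested against. With the replicate block, 13.6% of all genes were higher and 10.5% lower. CC chemokines then gave 8 falls and cell cycle genes 16 falls and 2 rises. Glutathione S-transferases gave 11 rises and 3 falls, and macrophage markers 1 rise and 6 falls. This block was an alternative fit. Others were the arrays in the fit, the prior, array weights, normalization, the probe set per gene, a filter on dim genes and each array left out. Leaving out the arrays numbered 4 was chosen after seeing the data. The procedure was tested on simulated data.

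The comparison and the gene lists were chosen with earlier results of these data known, so counts over lists are descriptions. Named genes are Keap1, Nfe2l2 and 7 targets, the 15 largest rises and 15 largest falls with no overlap, up to 6 members of each of 48 lists past the threshold, and the 6 largest differences in each direction between the siRNAs with no overlap. Of the largest falls 2 had only a clone identifier and were passed over.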

Additional observations from a re-analysis of the deposited data

Results flagged for a closer look

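In 22 of 428 groups of 4 arrays 1 value of a named gene lay apart from the other 3 by Dixon's criterion, where chance flags about 1 in 20. Of these, 10 lay on an array numbered 4. With siKeap1-1 array 4 was highest for Nqo1 (13.33, the others 12.80 to 12.87), Hmox1 (13.71, the others 13.40 to 13.42) and Cxcl3 (9.40, the others 8.42 to 8.58) and lowest for Srxn1 (13.34) and Ripor2 (5.22, the others 6.20 to 6.22). With siControl it was highest for Gclc (10.48, the others 9.97 to 10.03) and Abcc1 (12.16) and lowest for Il1b (6.88, the others 7.93 to 8.04), Dnmt3l (8.07) and Psma4 (11.46).

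On siControl array 1 the value was highest for Armcx2 (9.01), Adh7 (5.98), Klf4 (10.19) and Ppard (9.03) and lowest for Gstm3 (4.65), Idh2 (11.36) and Tlr2 (9.25). On siControl array 3 Ccl6 was lowest (14.07). On siKeap1-1 array 1 Cd72 was lowest (10.62, the others 11.07 to 11.14) and Mmp8 highest (13.67), and on array 3 Tarbp2 (11.49) and Hspa1a (6.37, the others 6.14) were highest.

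Outside the named genes, 416 of the 10092 probe sets with no single gene name passed the threshold with siKeap1-1 (4.12%), 196 higher and 220 lower. They were not analysed further.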

How the results depend on the processing

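The count of 2741 genes was 1470 with all 28 arrays in 1 fit, 4371 with the replicate block and 1468 at an adjusted p under 0.01. Leaving out 1 array gave 2018 to 2611, and the other settings run gave 2056 to 3404. The count of 200 genes changed at least 2-fold was 117 among the brighter genes, a setting that tests fewer genes, and 186 to 217 with 1 array left out. The direct count of 1356 between the siRNAs was 601 with all 28 arrays, 868 without the arrays numbered 4, 845 with only the groups compared, 2665 with the replicate block and 593 at an adjusted p under 0.01, and 849 to 1331 with 1 array left out (849 without siKeap1-2 array 2). Keap1 lay between −2.07 and −1.98 with 1 array left out. NRF2 core targets gave 24 to 27 rises with 1 array left out and 1 fall with a trended robust prior. Their median was 0.67 to 0.80 with 1 array left out. The causes of these changes were not tested.

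Of 4458 values of the 214 named genes under all settings 0 reversed direction, 506 no longer passed and 12 newly passed. The replicate block changed the call of 1 named gene, Hmox1, and ended none. All 28 arrays in 1 fit ended 83 calls and leaving out the arrays numbered 4 ended 41. Signal near background limits dim genes, whose differences RMA shrinks.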
